A study of Mus musculus with 11 samples.

Results

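The Cyp4a and Cyp4b fatty acid hydroxylases of the mouse kidney cortex are described here in mice that lack Cpt1a in their tubules. The genes were chosen by name as Cyp4a10, Cyp4a12a, Cyp4a12b, Cyp4a14, Cyp4a30b, Cyp4a31, Cyp4a32 and Cyp4b1. These are 8 of the 53801 genes listed in the table of raw read counts, and 7 of the 8 had enough reads to be tested. RNA-Seq was performed on renal cortex of 6 Cpt1aCKO mice and 5 floxed control mice, all male, on a mixed background and aged for 2 years. Cpt1aCKO mice carried floxed Cpt1a together with Pax8-rTTA and tetO-Cre, which act in renal tubules, and the controls are described as floxed only. Both genotypes ate doxycycline food for 3 weeks at 5 to 8 weeks of age to switch on Cre. The paper speaks of littermate controls for its aged mice, but the labels do not tie single mice to litters. Each mouse gave 1 library.

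Members of the CYP4A and CYP4B families are microsomal cytochrome P450 enzymes that hydroxylate fatty acids at the end of the chain opposite to the carboxyl group. Alcohol and aldehyde dehydrogenases can then turn the product into a dicarboxylic acid, which is shortened in peroxisomes. Mouse Cyp4a10 and Cyp4a14 are classical targets of the nuclear receptor PPARα, whereas Cyp4a12a is the androgen-dependent enzyme of male kidney that makes the eicosanoid 20-HETE from arachidonic acid, and Cyp4b1 is likewise androgen-dependent in mouse kidney. CPT1A, the enzyme deleted here, passes long-chain fatty acids to carnitine for entry into mitochondria.

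Depth was 43027049 to 57459929 counted reads in Cpt1aCKO libraries, against 39628721 to 56241595 in floxed control libraries. Levels are given as CPM, the reads of a gene scaled to a common depth after TMM normalization. Cpt1a itself had 38.3 to 97.1 CPM in Cpt1aCKO mice, against 417 to 548 CPM in floxed control mice. The summed level of 10 proximal tubule markers was 14916 to 18721 CPM in Cpt1aCKO mice, against 16038 to 18183 CPM in controls, whereas 6 hepatocyte markers summed to at most 62.2 CPM in any mouse. Of 6 macrophage markers, 5 had a positive log2 fold change (median 0.37). In Cpt1aCKO mice 2 of the 6 were higher at an unadjusted p under 0.05 and none at an adjusted p. The 6 summed to 115 to 180 CPM in Cpt1aCKO mice, against 95.3 to 138 CPM in controls. C1qa was higher without overlap of the groups (DESeq2 adjusted p = 0.0780, edgeR adjusted p = 0.527). Of 7 T and B cell markers 6 had a positive log2 fold change (median 0.71), with sums of 2.80 to 17.7 CPM in Cpt1aCKO mice, against 2.96 to 6.59 CPM in controls, and Cd4 was higher without overlap of the groups (DESeq2 adjusted p = 0.0296, edgeR adjusted p = 0.455). Of 4 thick ascending limb markers 2 were lower at an unadjusted p under 0.05, with sums of 3781 to 5010 CPM in Cpt1aCKO mice, against 3930 to 5145 CPM in controls. Of 3 distal convoluted tubule markers 1 was lower at an unadjusted p under 0.05. The 3 summed to 644 to 896 CPM in Cpt1aCKO mice, against 675 to 907 CPM in controls. Over all genes tested, 3.35% were higher and 2.57% lower at an unadjusted edgeR p under 0.05. The part of these cell markers in the levels of the Cyp4 genes was not tested. In bulk cortex, fewer cells of a type and less RNA per cell cannot be told apart.

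All 8 genes lie in 1 cluster on chromosome 4. By gene identifier they were placed in GENCODE M21 (GRCm38), since the build behind the counts is not given in the sources used here. From the start of the cluster these were Cyp4a12a (chr4:115299046-115332815, plus strand), Cyp4a12b (chr4:115411624-115439034, plus), Cyp4a30b (chr4:115452604-115471062, plus), Cyp4a14 (chr4:115486200-115496142, minus), Cyp4a10 (chr4:115518264-115533649, plus), Cyp4a31 (chr4:115563649-115579015, plus), Cyp4a32 (chr4:115600969-115621602, plus) and Cyp4b1 (chr4:115624725-115647723, minus). Several are near copies of each other, which bears on how reads can be assigned. The coding sequences of Cyp4a12a and Cyp4a12b are 98.5% identical over 1524 bases and differ at 23. Cyp4a10 is 96.6% identical to Cyp4a31 and 97.2% identical to Cyp4a32, whereas Cyp4a14 is at most 79.9% identical to any other of the 8, and Cyp4b1 at most 63.9%.

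A stretch of 60 coding bases is shown for Cyp4a12a and Cyp4a12b, the first of those that hold the most differences in this pair, because only reads over such bases can be assigned to 1 gene of the pair. It covers coding bases 624 to 683, counted from the first base of the start codon. Capitals mark the 4 differing bases, which are G670A, G676T, T682C and C683T with the base of Cyp4a12a first.
Cyp4a12a: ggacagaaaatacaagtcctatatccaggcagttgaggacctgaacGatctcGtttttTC
Cyp4a12b: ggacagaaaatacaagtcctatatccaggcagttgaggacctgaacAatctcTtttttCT
The same is shown for Cyp4a10 and Cyp4a32 over coding bases 200 to 259, where 9 bases in capitals differ.
Cyp4a10: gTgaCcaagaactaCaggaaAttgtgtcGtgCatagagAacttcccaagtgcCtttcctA
Cyp4a32: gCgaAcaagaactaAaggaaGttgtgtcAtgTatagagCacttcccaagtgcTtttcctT
The longest run without a difference was 342 bases in the Cyp4a12a and Cyp4a12b pair and 179 bases in the Cyp4a10 and Cyp4a32 pair.

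Transcripts were also read in windows of 100 bases, which is about the length of a read here. Of the windows of Cyp4a12a, 64.2% occur in the transcripts of no other gene, and 63.8% of those of Cyp4a12b, and every shared window of each was shared with the other gene of the pair. The share was 87.8% for Cyp4a10, 92.7% for Cyp4a31 and 81.8% for Cyp4a32, and it was 93.8% for Cyp4a30b and 96.6% for Cyp4b1. Every window of Cyp4a14 was its own. How reads that match several genes were counted is not given in the sources used here, so sums over near copies are reported beside the single genes.

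**Figure D1:**
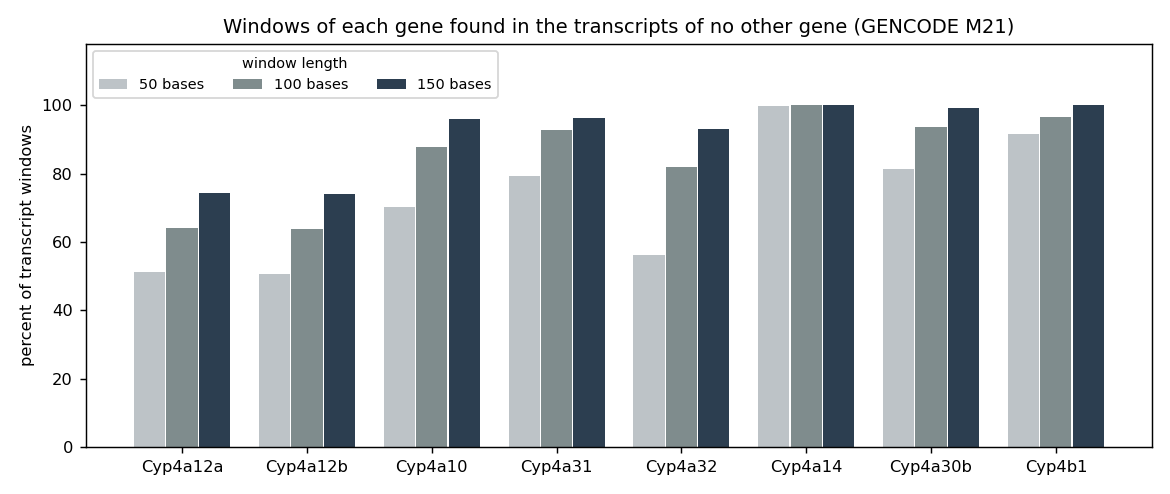
Bars give, for each of the 8 genes (horizontal axis), the percent of its transcript windows of 50, 100 or 150 bases that occur in the transcripts of no other gene in GENCODE M21 (vertical axis). Cyp4a12a and Cyp4a12b are lowest at 100 bases, at 64.2% and 63.8%, and Cyp4a14 is highest.

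Cyp4a12b was the only one of the 8 genes to pass the edgeR adjusted threshold. It had 225, 204, 219, 226, 158 and 186 CPM in Cpt1aCKO mice, against 67.9, 91.7, 98.3, 92.2 and 109 CPM in floxed control mice. Every Cpt1aCKO mouse lay above every floxed control mouse, and the lowest Cpt1aCKO value (S7763) was still above the highest control value. Cyp4a12b rose 2.21-fold (log2 fold change 1.14 ± 0.12, SE, 95% interval of the fold 1.85 to 2.64, edgeR adjusted p = 0.00124), and it had the second smallest p of the 18160 genes tested. The exact two-sided permutation test over the 462 splits of the mice gave p = 0.00216, the smallest it can give. The p of this test is given here and below without adjustment for the 11 values tested this way. With any 1 mouse left out the log2 fold change was 1.06 to 1.21.

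Cyp4a12a, its near copy, had 501, 403, 489, 521, 406 and 723 CPM in Cpt1aCKO mice, against 359, 358, 224, 254 and 342 CPM in floxed control mice. The groups did not overlap for this gene either, although S2577 stood far above the other Cpt1aCKO mice. The fold was 1.65 (log2 fold change 0.72 ± 0.17, SE, 95% interval of the fold 1.29 to 2.11). This missed the threshold in edgeR (adjusted p = 0.446, unadjusted p = 0.000722) and passed it in DESeq2 (adjusted p = 0.00658). The exact two-sided permutation p was 0.00216.

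Counted together, Cyp4a12a plus Cyp4a12b gave 564 to 909 CPM in Cpt1aCKO mice (median 717) and 322 to 451 CPM in floxed control mice (median 427). This sum does not depend on how reads were divided within the pair. It was 1.78-fold higher (95% interval 1.48 to 2.14), with an edgeR adjusted p = 0.0636 over all genes, and without S7763 the adjusted p was 0.0292. DESeq2 gave an adjusted p = 7.78e-07.

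Within the pair, Cyp4a12b took 31.0%, 33.6%, 30.9%, 30.2%, 28.1% and 20.4% of the reads in Cpt1aCKO mice, against 15.9%, 20.4%, 30.5%, 26.6% and 24.1% in floxed control mice. The ranges overlapped, and the mean share was 5.53 percentage points higher in Cpt1aCKO mice (exact two-sided permutation p = 0.0952). Single mice decide this call, since the p was 0.0238 without the Cpt1aCKO mouse S2577 and 0.0476 without the control mouse S7762. A difference between the genes of the pair in their response to the deletion therefore did not hold beyond the spread between these mice.

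**Figure D2:**
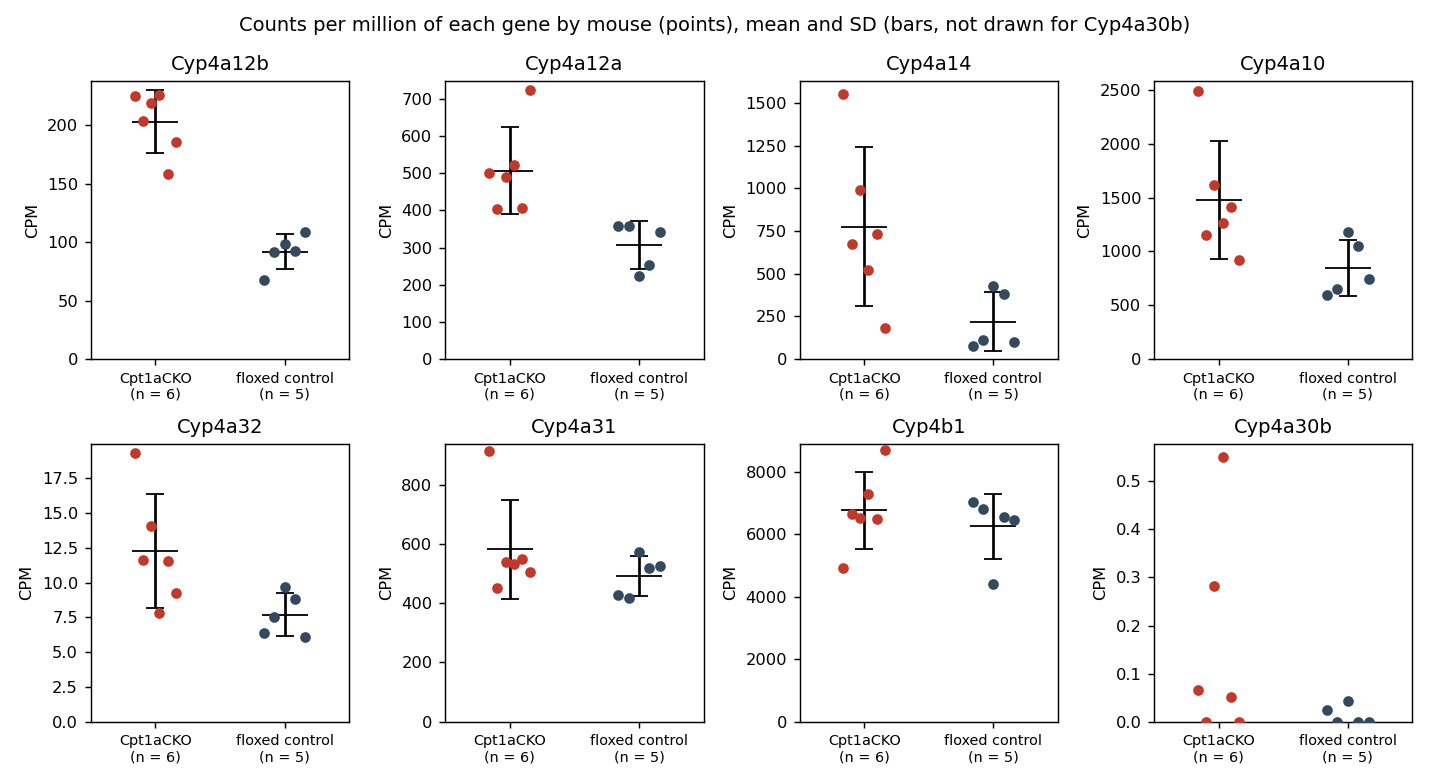
Each panel gives the CPM of 1 gene (vertical axis from 0) in 6 Cpt1aCKO mice on the left and 5 floxed control mice on the right, with a point per mouse and bars for mean and SD. For Cyp4a12b all Cpt1aCKO mice sit between 158 and 226 CPM and all controls between 67.9 and 109 CPM, whereas the groups overlap for Cyp4a14, Cyp4a10, Cyp4a32, Cyp4a31 and Cyp4b1.

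Cyp4a14, a PPARα target, had the largest fold of the 7 genes tested and the widest spread. Its level was 1553, 674, 992, 520, 734 and 179 CPM in Cpt1aCKO mice, against 77.3, 112, 428, 382 and 98.2 CPM in floxed control mice. In Cpt1aCKO mice 5 of 6 lay above every control, and S2577 lay below the controls S7762 and S2582. The fold was 3.53 with a 95% interval from 1.29 to 9.69 (log2 fold change 1.82 ± 0.65, SE), which did not pass in edgeR (adjusted p = 0.772) or in DESeq2 (adjusted p = 0.226). The exact two-sided permutation p was 0.0281. Within a genotype the highest mouse was 8.67 times the lowest in Cpt1aCKO mice and 5.54 times the lowest in floxed control mice, whereas these ratios were 1.43 and 1.60 for Cyp4a12b.

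Cyp4a10, the other classical PPARα target, had 2488, 1152, 1615, 1265, 1409 and 924 CPM in Cpt1aCKO mice, against 593, 655, 1181, 1051 and 747 CPM in floxed control mice. The same control mice, S7762 and S2582, were high, and the same Cpt1aCKO mouse, S2577, was low. The fold was 1.75 (95% interval 1.18 to 2.58), with an edgeR adjusted p = 0.730 and an exact two-sided permutation p = 0.0238.

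Cyp4a32 and Cyp4a31 are near copies of Cyp4a10. Cyp4a32 was read far less, with 19.3, 11.6, 14.1, 7.84, 11.5 and 9.23 CPM in Cpt1aCKO mice, against 6.35, 7.56, 9.70, 8.81 and 6.07 CPM in floxed control mice. Of the Cpt1aCKO mice 4 lay above every control, and the fold was 1.59 (95% interval 1.17 to 2.18, edgeR adjusted p = 0.674). Cyp4a32 had an exact two-sided permutation p of 0.0281. Its reads came to a median of 0.846% of those of Cyp4a10 in Cpt1aCKO mice and of 0.838% in floxed control mice. At 97.2% coding identity, the part that reads of Cyp4a10 had in the count of Cyp4a32 was not tested.

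Cyp4a31 had 913, 451, 538, 533, 548 and 504 CPM in Cpt1aCKO mice, against 426, 419, 572, 520 and 525 CPM in floxed control mice. Of the Cpt1aCKO mice only S2155 lay above every control, and without it the log2 fold change was 0.06. The fold was 1.18 (log2 fold change 0.24 ± 0.16, SE, 95% interval -0.10 to 0.58, edgeR adjusted p = 0.872), so the interval held both no change and a rise by 0.58 on the log2 scale. The exact two-sided permutation p was 0.286. Reads of Cyp4a31 came to 33.3% to 54.6% of those of Cyp4a10 in Cpt1aCKO mice and to 48.4% to 71.9% in floxed control mice. Summed, Cyp4a10, Cyp4a31 and Cyp4a32 had a fold of 1.54 (95% interval 1.11 to 2.14, edgeR adjusted p = 0.758).

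Cyp4b1 was among the most abundant transcripts of the cortex. It ranked 5 of all genes by mean CPM in Cpt1aCKO mice and 6 in floxed control mice. Its level was 4909, 6657, 6524, 7297, 6505 and 8687 CPM in Cpt1aCKO mice, against 7028, 6799, 4417, 6562 and 6461 CPM in floxed control mice. The groups overlapped, and the fold was 1.08 with a 95% interval from 0.882 to 1.33 (edgeR adjusted p = 0.936). The exact two-sided permutation p was 0.476. The 2 annotated pseudogenes of Cyp4b1 in the cluster, Cyp4b1-ps1 and Cyp4b1-ps2, had counts of at most 0.192% of those of Cyp4b1 in every mouse, and neither passed an unadjusted p under 0.05.

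Cyp4a30b was at the edge of detection and was not tested. It had 3, 0, 15, 24, 3 and 0 reads in Cpt1aCKO libraries, against 1, 0, 2, 0 and 0 reads in floxed control libraries. Only S2397 and S7602 exceeded 3 reads, so the count of 45 reads in Cpt1aCKO mice rests mainly on these 2 libraries. S7602 also had the highest sum of olfactory receptor genes (144 CPM, against at most 36.3 CPM in any other library), and S2397 the highest sums of macrophage markers (180 CPM) and of T and B cell markers (17.7 CPM). The part of these in the reads of Cyp4a30b was not tested.

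**Figure D3:**
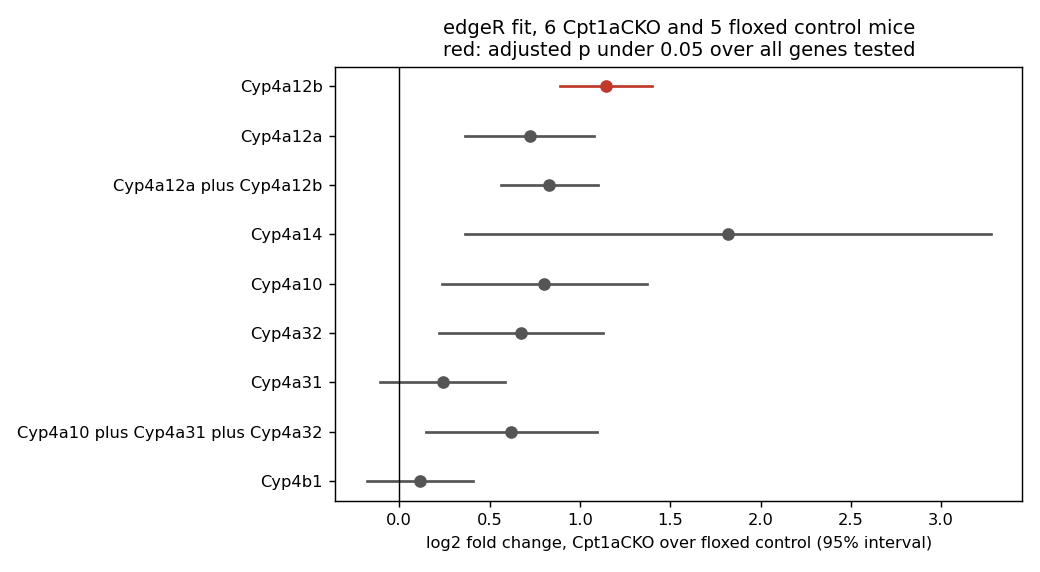
Points give the log2 fold change of Cpt1aCKO over floxed control mice (horizontal axis) from the edgeR fit for the 7 genes tested and the sums over near copies, and lines give the 95% interval. Cyp4a12b (1.14) is the only one past the adjusted threshold, and Cyp4a14 (1.82) has the longest interval.

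Across the 7 genes tested, all 7 had a positive log2 fold change, with a median of 0.72, against a median of 0.01 over all 18160 genes. By the edgeR adjusted p, 1 of 7 was higher, where 0.011% of all genes were, and by the DESeq2 adjusted p 2 of 7 were higher, where 0.165% were. By an unadjusted edgeR p under 0.05, 5 of 7 were higher, where 3.35% of all genes were, and 0 of 7 were lower, where 2.57% were. The groups did not overlap in 2 of 7, both higher in Cpt1aCKO mice, where 0.341% of all genes were separated in that direction and 0.275% in the other. The genes were chosen with earlier results of these data known, so these shares are not a background for a blind choice. Levels of several of these genes were correlated among mice, so the 7 are not independent of each other. The part of reads shared between near copies in this was not tested.

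Per kilobase of exon, the order of levels was similar in both genotypes except for Cyp4a14. Whole exon length was used, although only 64.2% and 63.8% of the 100-base windows of Cyp4a12a and Cyp4a12b are unique to them. For Cyp4a14 all are. How shared reads were counted is not known, so near copies may stand too low, and their place in the order is uncertain. In Cpt1aCKO mice it ran Cyp4b1 (2998 ± 545 CPM per kilobase, SD), Cyp4a10 (700 ± 260), Cyp4a14 (298 ± 179), Cyp4a31 (232 ± 66.3), Cyp4a12a (209 ± 48.3), Cyp4a12b (84.7 ± 11.1), Cyp4a32 (7.99 ± 2.65) and Cyp4a30b (0.104 ± 0.143). In floxed control mice it ran Cyp4b1 (2772 ± 465), Cyp4a10 (401 ± 122), Cyp4a31 (196 ± 26.7), Cyp4a12a (127 ± 26.4), Cyp4a14 (84.4 ± 65.5), Cyp4a12b (38.3 ± 6.26), Cyp4a32 (5.01 ± 1.02) and Cyp4a30b (0.00880 ± 0.0127). The ranges over mice of Cyp4a10, Cyp4a14, Cyp4a31 and Cyp4a12a overlapped between neighbours in Cpt1aCKO mice. In floxed control mice overlap between neighbours was limited to Cyp4a14, whose range reached those of Cyp4a12a and Cyp4a12b.

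The 8 genes together made up 0.940% to 1.11% of all counted reads in Cpt1aCKO mice and 0.681% to 0.890% in floxed control mice, without overlap. Cyp4b1 held 46.3% to 77.5% of these reads in Cpt1aCKO mice and 63.7% to 82.1% in floxed control mice. Cyp4a14 held 1.60% to 14.6% in Cpt1aCKO mice and 0.903% to 6.17% in floxed control mice.

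**Figure D4:**
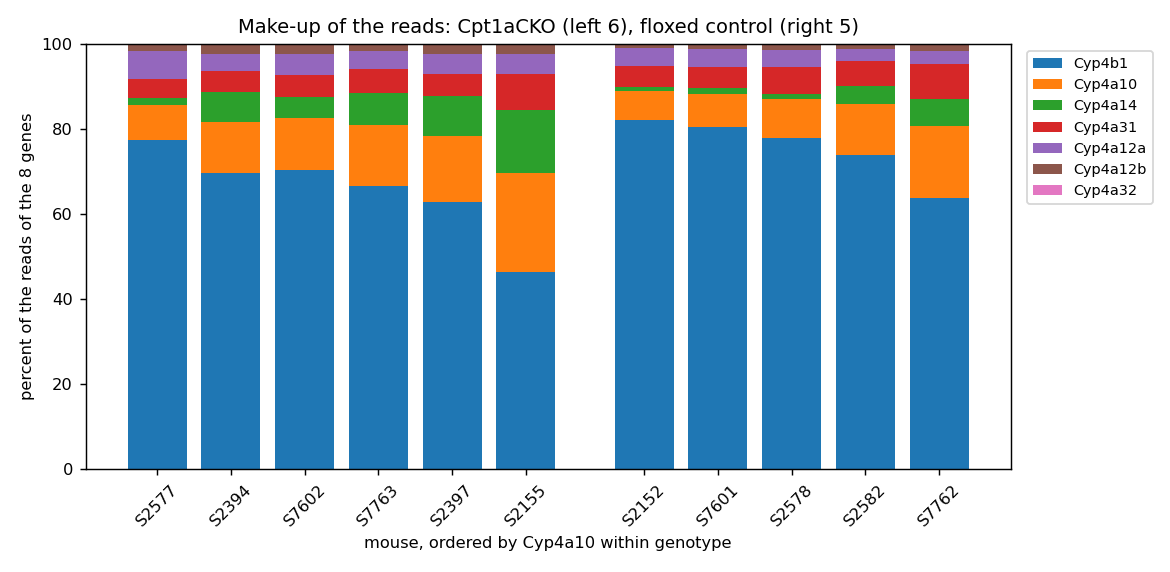
Stacked bars give the percent of the reads of the 8 genes that each gene took (vertical axis) in each mouse (horizontal axis), with the 6 Cpt1aCKO mice left of the 5 floxed control mice and each genotype ordered by Cyp4a10. Cyp4b1 takes 46.3% in the Cpt1aCKO mouse S2155 and 77.5% in S2577, and 63.7% in the control mouse S7762. Cyp4a32 is too small to see and Cyp4a30b is not drawn.

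Mice of the same genotype differed from each other along a shared pattern. Log2 CPM was centred on the mean of each genotype, and the 7 genes were compared pairwise and with Cpt1a over the 11 mice, which gave 28 relations with exact p-values from the 86400 pairings within genotypes. Of 21 relations between the genes, 4 were positive and 5 negative at an adjusted p under 0.05. Cyp4a10 and Cyp4a14 moved together most closely, with Pearson's r = 0.93 (exact p = 0.000289, adjusted p = 0.00637) and Spearman's rho = 0.93 (exact p = 0.000532, adjusted p = 0.0146). Pearson's r was 0.93 without the 2 mice farthest from the median of Cyp4a10, and 0.90 in the 6 Cpt1aCKO mice alone.

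Cyp4b1 ran opposite to the same genes. With Cyp4a10 its r was -0.87 (exact p = 0.000556, adjusted p = 0.00637), its rho -0.85 (exact p = 0.00106, adjusted p = 0.0146), and r was -0.69 without the 2 farthest mice. With Cyp4a14 its r was -0.83 (exact p = 0.000683, adjusted p = 0.00637), its rho -0.85 (exact p = 0.00156, adjusted p = 0.0146), and r was -0.69 without the 2 farthest mice. In the 6 Cpt1aCKO mice alone these r were -0.95 and -0.94. Cyp4a12a also ran opposite to Cyp4a14, with r = -0.82 (exact p = 0.0104, adjusted p = 0.0363), rho = -0.82 (exact p = 0.00829, adjusted p = 0.0331), and r = -0.63 without the 2 farthest mice.

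For Cyp4a12a and Cyp4b1 the adjusted p passed for Spearman's rho and not for Pearson's r, with rho = 0.82 (exact p = 0.00531, adjusted p = 0.0264) and r = 0.66 (exact p = 0.0389, adjusted p = 0.109), and r was 0.26 without S2577 and S7762, the 2 farthest mice. The remaining relations past the threshold by Pearson's r involved the near copies of Cyp4a10. Cyp4a31 with Cyp4a10 had r = 0.86 and rho = 0.85 (exact p = 0.00207 and 0.00565, adjusted p = 0.0145 and 0.0264), and r was 0.66 without the 2 farthest mice. Cyp4a32 had r = 0.84 with Cyp4a10 (rho = 0.75, exact p = 0.00450 and 0.0156, adjusted p = 0.0245 and 0.0548), falling to 0.63 without the 2 farthest mice, r = 0.81 with Cyp4a14 (rho = 0.83, exact p = 0.00542 and 0.00251, adjusted p = 0.0245 and 0.0176), staying at 0.80, and r = -0.79 with Cyp4b1 (rho = -0.69, exact p = 0.00612 and 0.0257, adjusted p = 0.0245 and 0.0799), at -0.74. Cyp4a31 with Cyp4b1 had r = -0.75 (rho = -0.65, exact p = 0.0130 and 0.0397, adjusted p = 0.0404 and 0.101), but r was -0.19 without the 2 farthest mice, so this relation rests on those mice, S2155 and S7762. Cyp4a10 shares some 100-base windows with Cyp4a32 and Cyp4a31, whereas Cyp4a14 shares none with any other gene, and the part of shared reads in these relations was not tested.

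For Cyp4a12b, the gene past the edgeR adjusted threshold, no relation with another of these genes passed an adjusted p under 0.05. Its r ranged from -0.36 with Cyp4b1 to 0.45 with Cyp4a10, and with Cyp4a12a it was -0.10 (exact p = 0.748). With Cyp4a14, Cyp4a31 and Cyp4a32 it was 0.37, 0.42 and 0.22, so these signs were those of the shared pattern. Whether Cyp4a12b follows that pattern more weakly cannot be decided from 11 mice. None of the 7 relations with Cpt1a passed, with r from -0.33 to 0.49, 0 at an unadjusted exact p under 0.05 and a lowest adjusted p of 0.292.

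**Figure D5:**
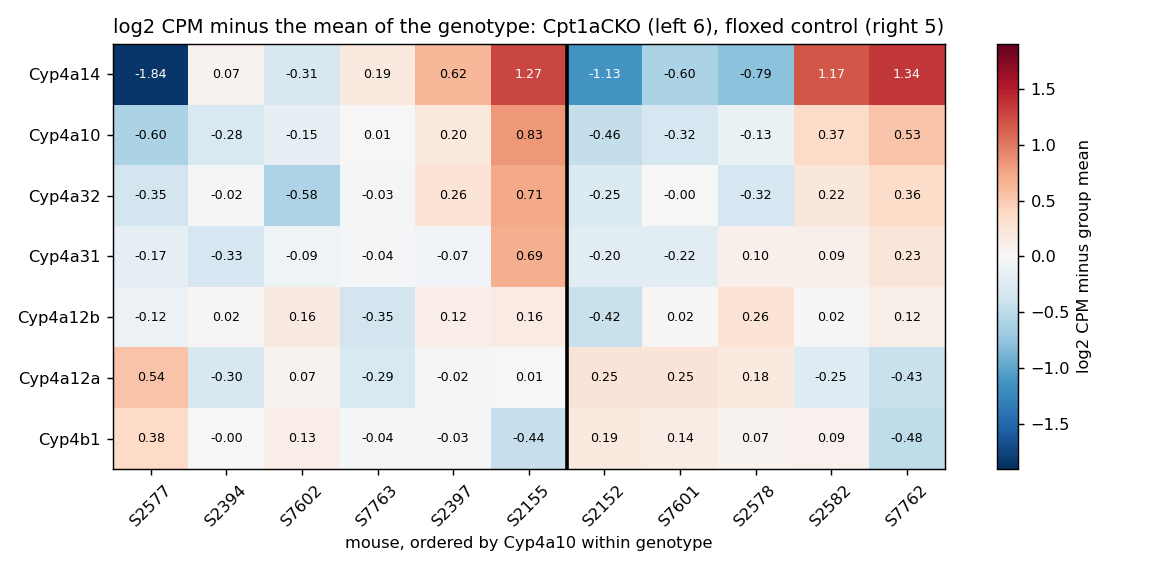
Colours and printed values give log2 CPM minus the mean of the genotype for 7 genes (rows) in each mouse (columns), with the 6 Cpt1aCKO mice left of the line, the 5 floxed control mice right of it, and each genotype ordered by Cyp4a10. Cyp4a14 runs from -1.84 in S2577 to 1.27 in S2155 among Cpt1aCKO mice, and Cyp4b1 runs the other way, from 0.38 to -0.44 in these mice.

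Sums over other gene lists were read in the same mice. The sum of 10 androgen-dependent kidney genes, among them Kap and Odc1, was highest among Cpt1aCKO mice in S2577 (13071 CPM) and lowest in S2155 (6541 CPM). Of the Cpt1aCKO mice, S2577 was lowest for Cyp4a14 and Cyp4a10 and highest for Cyp4b1 and Cyp4a12a. Kap made up most of this sum, with a mean of 7380 CPM in Cpt1aCKO mice and 8692 CPM in controls. The means of Odc1 were 489 and 572 CPM. Among floxed control mice the androgen-dependent sum was 7956 CPM in S2582 and 8510 CPM in S7762, the 2 mice with high Cyp4a14. It was 11173 to 13166 CPM in the other 3. A list of 6 markers of the S3 segment of the proximal tubule shares Slc7a13 and Cyp7b1 with the androgen-dependent list. Among Cpt1aCKO mice the S3 sum was lowest in S2155 (1581 CPM) and highest in S7602 (2302 CPM), with 1927 CPM in S2577. Among controls it was 1466 CPM in S7762, 1999 CPM in S2582 and 2426 to 2683 CPM in the other 3. The sum of 32 PPARα targets outside the 8 genes was 16672 CPM in S2155 and 10523 CPM in S2577, against 10109 CPM in S2582 and 8685 to 9192 CPM in the other controls. S7762, the control with the highest Cyp4a14 and Cyp4a10, had 9058 CPM of this sum, below S7601 with 9192 CPM. The part of these levels in the differences between mice was not tested. No gene of the androgen-dependent list passed even an unadjusted p under 0.05 between genotypes, and 2 of 10 had a positive log2 fold change, with a median of -0.24. Of the 6 S3 markers 1 was lower at an unadjusted p under 0.05 and 1 had a positive log2 fold change, with a median of -0.26.

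Likeness over all genes was described without a test. The genes named are the highest of 13824 over only 11 mice, so a high r is expected for some genes from the picking alone. Among 13824 genes with a mean of at least 1 CPM, the genes whose centred level over the 11 mice was closest to that of Cyp4a14 were Fam168a (r = 0.97), Zfp189 (0.94), Cyp4a10 (0.93), Purb (0.91) and Kcnk1 (0.91). Closest to Cyp4a12b were Acot8 (0.95), a peroxisomal acyl-CoA thioesterase, Cops2 (0.90), Eif1ad (0.89), BB218582 (0.89) and Lsm3 (0.88). Of the genes named here, only Cyp4a10 had an unadjusted edgeR p under 0.05 between genotypes.

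Promoter sequences were held by the RefSeq table (GRCm38.p6) for 3 of the 8 genes, Cyp4a30b, Cyp4a32 and Cyp4b1. They are shown for Cyp4a32 and Cyp4b1, which ran opposite to each other among mice, from 250 bases before the start that RefSeq gives to 50 bases after it. For Cyp4a32 and Cyp4b1 this start is not the GENCODE M21 start given above, and for Cyp4a32 it lies upstream of it. PPARα binds direct repeats with 1 base between the repeated motifs, so AGGTCANAGGTCA was searched on both strands with up to 2 mismatches in its 12 fixed bases. No match was found in any of the 3, where 3.87% of 32544 promoters of the same length held one. With up to 3 mismatches 24.7% of promoters held a match, and Cyp4a32 and Cyp4a30b held 1 each. Capitals mark that of Cyp4a32, which reads on the opposite strand.
Cyp4a32 (chr4:115600688-115600987, plus strand): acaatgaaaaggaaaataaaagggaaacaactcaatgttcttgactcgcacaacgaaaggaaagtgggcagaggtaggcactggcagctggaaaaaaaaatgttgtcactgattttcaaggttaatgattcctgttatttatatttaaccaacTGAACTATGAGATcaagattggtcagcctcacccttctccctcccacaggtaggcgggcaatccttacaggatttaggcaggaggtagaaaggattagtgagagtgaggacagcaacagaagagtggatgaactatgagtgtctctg
Cyp4b1 (chr4:115647672-115647971, minus strand): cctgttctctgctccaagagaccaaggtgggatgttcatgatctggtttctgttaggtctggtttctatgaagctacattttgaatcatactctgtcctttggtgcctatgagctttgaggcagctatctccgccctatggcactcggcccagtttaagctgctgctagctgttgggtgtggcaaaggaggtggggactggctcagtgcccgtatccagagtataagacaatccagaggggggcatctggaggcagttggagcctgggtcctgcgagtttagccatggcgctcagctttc
A match is a description of letters and not of a binding site, and its absence says only that these letters are not in this window.

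The steps around the hydroxylation were read from lists of genes. Beside the counts that follow, 3.35% of all genes tested were higher and 2.57% lower at an unadjusted edgeR p under 0.05. Electrons reach microsomal P450 enzymes through Por, the P450 reductase, and through cytochrome b5. Of 5 such genes, 0 passed the adjusted threshold and 2 were lower at an unadjusted p under 0.05. Por had 426 ± 20.6 CPM in Cpt1aCKO mice and 499 ± 31.2 CPM in floxed control mice (SD, n = 6 and 5), without overlap (log2 fold change -0.23 ± 0.06, SE, edgeR adjusted p = 0.552). Cyb5r3, which reduces cytochrome b5, had a log2 fold change of -0.37 ± 0.13 (SE, edgeR adjusted p = 0.730).

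Downstream, 7 alcohol and aldehyde dehydrogenases were tested, of which 0 passed the adjusted threshold and 2 were higher at an unadjusted p under 0.05. These were Aldh3a2, the fatty aldehyde dehydrogenase, with a log2 fold change of 0.23 ± 0.08 (SE, edgeR adjusted p = 0.730), and Aldh9a1, with 0.25 ± 0.09 (SE, edgeR adjusted p = 0.768). The median of the 7 was -0.08. Of 11 genes of the peroxisomal oxidation of dicarboxylic acids, 6 were higher at an unadjusted p under 0.05, 0 were lower and 0 passed after adjustment, with a median log2 fold change of 0.17. Ehhadh, the bifunctional enzyme of this pathway, had the smallest p of them (log2 fold change 0.64 ± 0.20, SE, edgeR adjusted p = 0.682).

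Receptors and further targets of PPARα were counted in the same way. Of 12 PPAR and RXR receptors and cofactors, 0 passed an unadjusted p under 0.05, and Ppara had a log2 fold change of 0.13 ± 0.14 (SE, edgeR adjusted p = 0.929). Of 31 PPARα targets outside the 8 genes, 0 passed the edgeR adjusted threshold. At an unadjusted edgeR p under 0.05, 26 were higher, where 3.35% of all genes were. By the DESeq2 adjusted p 8 were higher, where 0.165% of all genes were. The 31 targets had a median log2 fold change of 0.40, led by Fabp1, a fatty acid binding protein, at 3.00 ± 0.51 (SE, edgeR adjusted p = 0.263). Of 9 genes tested for arachidonate epoxygenases, epoxide hydrolases and phospholipase, 1 was higher at an unadjusted p under 0.05, Ephx1, a microsomal epoxide hydrolase (log2 fold change 0.39 ± 0.14, SE, edgeR adjusted p = 0.755). By the DESeq2 adjusted p, 0 genes passed in any of these lists but that of the PPARα targets. The lists were chosen with results of these mice known and are not independent evidence of a direction.

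Elsewhere in the Cyp4 family no gene passed. Of 19 other Cyp4 genes listed, 11 were tested, 0 passed an unadjusted p under 0.05 in edgeR and 0 passed the DESeq2 adjusted threshold, and 5 of 11 had a positive log2 fold change (median -0.01). The highest over all 11 mice were Cyp4f13, with 45.5 ± 5.05 CPM in Cpt1aCKO mice and 50.4 ± 5.54 CPM in floxed control mice (SD, n = 6 and 5), and Cyp4b1-ps2. Cyp4f14, which had the smallest p of them, had 3.04 ± 0.70 CPM in Cpt1aCKO mice and 3.89 ± 0.91 CPM in floxed control mice.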

How the data were processed

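RNA of renal cortex from 6 Cpt1aCKO and 5 floxed control mice was sequenced after TruSeq stranded mRNA library preparation. The authors aligned reads with STAR 2.7.3a and counted them per gene with HTSeq, and the deposited raw read counts were used here. For the genome build, the annotation and the settings of HTSeq, the sources used here give nothing. The 11 columns of normalized counts and the columns of the authors' DESeq2 comparison (mean, fold change, its error, p-values, with and without shrinkage) were not used, nor was the Cufflinks 2.2.1 output.

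Genes were filtered with filterByExpr, scaled by TMM and tested across all 18160 genes with edgeR 4.0.16 (robust quasi-likelihood fit, Benjamini-Hochberg adjusted p under 0.05) in R 4.3.3. DESeq2 1.42.0 and voom of limma 3.58.1 were alternatives. SE is the log2 fold change over the root of the F statistic, and 95% intervals use its degrees of freedom. Log2 CPM used a prior count of 2. Exact tests enumerated all splits (11 tests) or pairings (28 relations) and were two-sided. The p from splits was not adjusted over the 11 tests. The fits were tested on simulated data. Coding sequences were aligned with Biopython 1.88. Gene identifiers were found in GENCODE M21 for 99.8% of those listed. The smallest mean chi-square per gene between any 2 libraries was 23.7, so none was a copy of another. Litters are not given, and all p-values treat the mice as independent of each other.

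The named genes were all 8 members and Cpt1a, up to 4 genes with the smallest p in each list and other Cyp4 genes, the 2 highest of the latter kind, and the 5 genes most like Cyp4a12b and Cyp4a14. Members and lists were chosen with earlier results of these data known.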

Additional observations from a re-analysis of the deposited data

Results flagged for a closer look

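In 4 of 26 sets of values (each gene, sum or share in each genotype), 1 mouse stood apart from the others of its genotype by Dixon's criterion at the 95% level, which chance meets in about 1 of 20 sets. Cyp4a12a had 723 CPM in the Cpt1aCKO mouse S2577, and the next highest Cpt1aCKO mouse had 521 CPM. Cyp4a31 had 913 CPM in the Cpt1aCKO mouse S2155, and the next highest had 548 CPM. The sum of Cyp4a10, Cyp4a31 and Cyp4a32 was 3421 CPM in the same mouse S2155, and the next highest was 2168 CPM. Cyp4b1 had 4417 CPM in the floxed control mouse S7762, and the next lowest control had 6461 CPM. The sets share reads and mice, so these are not independent.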

How the results depend on the processing

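Cyp4a12b kept its direction and its side of the adjusted threshold in all 21 alternative fits, and the other 6 genes tested kept their direction in all 21. With DESeq2, Cyp4a12a also passed, so 2 genes were higher with or without the filter, and over all genes 30 were higher and 20 lower with the filter and 33 and 19 without it, where edgeR called 2 and 1. The log2 fold change of Cyp4a12a plus Cyp4a12b passed at 0.83 with DESeq2 with the filter and at 0.83 without it, at 0.81 with voom (adjusted p = 0.0395), at 0.86 with library size alone (edgeR adjusted p = 0.0345) and at 0.83 without a filter (edgeR adjusted p = 0.0451). With 1 mouse left out, it ranged from 0.75 to 0.89 (edgeR adjusted p 0.0292 to 0.268), the difference in the share of Cyp4a12b from 3.62 to 7.28 percentage points (exact p 0.0238 to 0.238), and the genes called lower from 1 to 2. Without 1 mouse, Cyp4a10 ranged from 0.59 to 0.96, Cyp4a31 from 0.06 (without S2155) to 0.31 and Cyp4b1 from 0.01 to 0.19 on the log2 scale. By Spearman's rho, the relation of Cpt1a with Cyp4a12a was 0.0818 in place of r = -0.28, and with Cyp4a32 it was -0.0727 in place of 0.11, neither past the threshold. The cause of these differences was not tested. No paired analysis was possible because the labels give mouse numbers only and no shared replicate number. Any likeness within litters was therefore not taken into account. With the first digit of the mouse number as a term in edgeR, the adjusted p was 0.00383 for Cyp4a12b and 0.110 for Cyp4a12a plus Cyp4a12b. How reads of near copies were assigned is not known.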
